A study of Mus musculus with 29 samples.

Results

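Mast cells, basophils and eosinophils are rare granulocytes, and 8 genes that mark them were described here across bone marrow and spleen of mice with a leukaemia oncogene. The genes were Fcer1a, Ms4a2, Mcpt4, Cpa3, Mcpt8, Prg2, Epx and Hdc, 8 of the 12394 genes that the arrays measured with a probe set annotated to a single symbol. They were chosen by name for the cells they mark, with earlier results of these data known. For each tissue the brightest probe set of a gene was used. Of these genes 7 had 1 probe set and Hdc had 2. The mice carried MLL-ENL-ERtm, a fusion of MLL and ENL attached to an altered oestrogen receptor domain that binds tamoxifen, so that the oncogene works only while the drug is given. Gene expression was measured on 29 Affymetrix arrays, 15 of bone marrow and 14 of spleen, each from cells taken directly from mice and labelled as a biological replicate. All mice, wild type included, ate chow with tamoxifen at 300 mg/kg, so no group is free of the drug.

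The fusion marrow was divided by cell state into 4 proliferation arrays (7 months of tamoxifen, strong division and little DNA damage signalling), 4 transition arrays (7 to 8 months, less division and strong damage signalling) and 3 senescence arrays (8 months), and was set against 4 wild-type marrow arrays (7 or 8 months). The fusion spleen was divided by disease stage into 3 early arrays (7 months), 3 progression arrays (9 or 10 months) and 3 terminal arrays (19, 21 and 23 months), and was set against 5 wild-type spleens (8, 9, 11, 11 and 24 months). The promoter that drives the fusion, the strain and the number of founder lines are not given in the sources used here. The arrays measured whole tissue, so fewer cells of a type and less RNA per cell cannot be told apart. Levels are log2 values as deposited, and changes are log2 differences ± standard error (SE) from a limma fit over the 4 groups of a tissue, called where the adjusted p over all 12394 genes was under 0.05.

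Mast cells live in tissues and release histamine and proteases from their granules when antigen crosslinks IgE held by the high-affinity IgE receptor. Basophils arise in the marrow, circulate in blood, carry the same receptor and share part of the granule content. Eosinophils are granulocytes of the marrow, blood and gut whose granules hold cationic proteins and a peroxidase. Fcer1a and Ms4a2 encode the alpha and beta chains of the IgE receptor, which signals through Fcer1g, a chain shared with other receptors. Mcpt4 is a chymase of connective tissue mast cells, Cpa3 is a carboxypeptidase of mast cell and basophil granules, and Mcpt8 is a protease of mouse basophils. Prg2 encodes eosinophil major basic protein and Epx the eosinophil peroxidase. Hdc is histidine decarboxylase, the enzyme that makes histamine, and it is also expressed in neutrophils and their precursors.

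The promoters of the 3 genes that were lower in fusion spleen (Fcer1a, Mcpt4 and Cpa3) are printed first, with that of Mcpt8, the basophil protease, which was not called, beside them. Each runs from 250 bases before to 50 bases after the start site and is taken from RefSeq (GRCm38.p6), 5′ to 3′. All lie on the minus strand, Fcer1a at chr1:173227180-173227479, Mcpt4 at chr14:56062261-56062560, Cpa3 at chr3:20242132-20242431 and Mcpt8 at chr14:56085148-56085447. Capitals mark a GATA motif (AGATAA, its variant AGATAG, and the letters TGATAA and also TGATAG, on either strand).
Fcer1a: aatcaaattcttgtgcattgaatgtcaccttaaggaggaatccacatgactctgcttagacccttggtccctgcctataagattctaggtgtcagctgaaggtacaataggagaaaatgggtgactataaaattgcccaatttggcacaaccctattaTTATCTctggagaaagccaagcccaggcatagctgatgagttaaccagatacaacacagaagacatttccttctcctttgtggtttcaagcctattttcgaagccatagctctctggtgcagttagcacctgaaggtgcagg
Mcpt4: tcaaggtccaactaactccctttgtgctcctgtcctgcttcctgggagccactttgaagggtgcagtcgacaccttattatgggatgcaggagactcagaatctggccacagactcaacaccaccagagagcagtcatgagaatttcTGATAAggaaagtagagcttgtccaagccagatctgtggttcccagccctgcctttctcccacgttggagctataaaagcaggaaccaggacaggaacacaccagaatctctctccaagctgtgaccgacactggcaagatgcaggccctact
Cpa3: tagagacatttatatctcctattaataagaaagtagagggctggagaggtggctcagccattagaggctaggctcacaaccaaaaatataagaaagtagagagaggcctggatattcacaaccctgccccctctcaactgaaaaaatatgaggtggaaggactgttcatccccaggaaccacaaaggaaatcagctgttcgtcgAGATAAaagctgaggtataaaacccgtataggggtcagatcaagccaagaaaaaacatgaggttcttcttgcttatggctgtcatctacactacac
Mcpt8: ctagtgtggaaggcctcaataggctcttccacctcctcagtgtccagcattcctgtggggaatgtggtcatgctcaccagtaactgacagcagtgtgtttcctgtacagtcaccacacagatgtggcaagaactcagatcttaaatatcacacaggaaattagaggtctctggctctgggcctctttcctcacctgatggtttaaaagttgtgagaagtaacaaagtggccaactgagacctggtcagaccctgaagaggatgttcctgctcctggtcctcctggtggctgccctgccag
The 3 genes had 1 GATA motif each in this window, with its first base at -92 in Fcer1a, -103 in Mcpt4 and -46 in Cpa3 from the start site. No GATA motif was in the windows of Mcpt8 and Epx, Hdc had 1 and Ms4a2 had 3. Of 32851 promoters of the same length 29.8% held a GATA motif. The E-box letters CANNTG do not overlap a GATA motif here. They occurred 3 times in Fcer1a, 3 times in Mcpt8 and 2 times in Cpa3. Epx and Hdc held 1 each, Mcpt4 and Ms4a2 held none, and 72.3% of all promoters held them. These matches describe the letters in the windows only.

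Mature neutrophil genes had a mean log2 level of 14.33 to 14.77 in every marrow, and B cell genes 9.67 to 9.98 in every wild-type spleen. B cell genes had 9.3 to 10.41 in wild-type marrow, and the array medians differ between the tissues. These levels therefore do not test the tissue labels. Some arrays stood apart. Genes of pancreatic acinar cells had a mean log2 level of 12.16 in wild-type spleen 3, 8.09 in early spleen 1 and 7.60 in wild-type spleen 5, against 5.21 to 5.69 in the other spleens, so results in spleen are also given without these 3 arrays. Genes of fat and muscle had a mean of 11.37 in proliferation marrow 1. Xist, expressed in females, was high in all 4 proliferation and all 4 transition marrows, 1 of 3 senescence marrows and 2 of 4 wild-type marrows. High Xist was found in 1 of 3 spleens of the early stage, in 0 of 3 of the progression stage, in all 3 of the terminal stage and in 2 of 5 from wild-type mice, so sex was unbalanced between stages.

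In spleen Fcer1a and Mcpt4 were lower than wild type at every stage of disease, and Cpa3 was lower at the early stage. Mcpt4 marks mast cells, while basophils share Fcer1a and Cpa3. Hdc was higher at the early and terminal stages. The basophil protease Mcpt8 and the eosinophil genes Prg2 and Epx were not called at any stage. The test called 4 of the 8 genes in the early spleen, where it called 15.9% of all genes, 2 of 8 in progression (19.3%) and 3 of 8 in the terminal stage (34.5%). With the stages pooled it called 4 of 8 against 32.5% of all genes. In progression and at the terminal stage the counts were close to the share called among all genes, so nothing particular to these genes is read from them. The median change of the 8 genes was -0.75, -0.02 and -0.28 in the early, progression and terminal stages, and that of all genes 0.03, 0.04 and 0.04. The 4 comparisons share the same 5 wild-type arrays.

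Fcer1a (probe set 1421775_at), the chain of the receptor that binds IgE, had levels of 7.35, 7.17, 5.92, 7.51 and 9.22 in the wild-type spleens. The early spleens read 4.83, 3.75 and 4.34, the progression spleens 4.26, 4.76 and 3.96, and the terminal spleens 3.92, 4.14 and 6.78. Of the 9 fusion spleens, 8 lay within 1 log2 unit of the lower quartile of their array or below it, and terminal spleen 3 alone reached above the lowest wild-type spleen. Fcer1a fell by 3.13 ± 0.67 in the early stage (adjusted p = 0.00578), where no array overlapped wild type. In progression it fell by 3.11 ± 0.67 (adjusted p = 0.00524), again with no overlap. At the terminal stage the mean was 4.95 ± 1.59 (SD, n = 3) against 7.44 ± 1.18 (SD, n = 5) in wild type, and it fell by 2.49 ± 0.67 (adjusted p = 0.0102). No fold is given, since the fusion groups lay near the floor of the array and the true change may be larger. The terminal call was lost without terminal spleen 1 (change -1.98, adjusted p = 0.0629), without terminal spleen 2 (-2.09, adjusted p = 0.0583) and with months of tamoxifen in the model (-2.39, adjusted p = 0.0849).

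Among all 12394 genes Fcer1a ranked 2 by size of fall in the early stage and 5 in progression, and Mcpt4 ranked 1 and 4. At the terminal stage their ranks were 123 and 25. Both genes thus stood near the bottom of the whole list at the first and the second stage. As the genes were chosen with earlier results of these data known, the ranks are a description only.

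Ms4a2 (1421475_at), the beta chain, was near the floor in all 14 spleens, from 4.19 to 4.96. Its means were 4.29 ± 0.06 (SD, n = 3) in the early stage, 4.55 ± 0.32 (n = 3) in progression, 4.64 ± 0.20 (n = 3) at the terminal stage and 4.67 ± 0.25 (n = 5) in wild type. All 3 early spleens were below all wild-type spleens, with a change of -0.39 ± 0.16 and adjusted p = 0.13. After a repeated quantile normalization this change was called (-0.46, adjusted p = 0.025). At such levels the probe set cannot show a loss of the size seen for Fcer1a.

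Mcpt4 (1425967_a_at), the mast cell chymase, had the widest range of the 8 genes in spleen. The wild-type spleens read 8.26, 7.87, 5.87, 8.39 and 10.29. The early spleens read 5.41, 4.80 and 4.40, the progression spleens 5.91, 4.81 and 4.18, and the terminal spleens 4.73, 4.69 and 4.42. Progression spleen 1 was the only fusion array above the lowest wild-type spleen, by a few hundredths. Mcpt4 fell by 3.27 ± 0.69 in the early stage (adjusted p = 0.00506). It fell by 3.17 ± 0.69 in progression (adjusted p = 0.00533) and fell by 3.52 ± 0.69 at the terminal stage (adjusted p = 0.00121). The call held at all 3 stages under every alternative that tested the gene. The mean in wild type was 8.14 ± 1.58 (SD, n = 5), and the spread among wild-type mice was larger than that in any fusion group.

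Cpa3 (1448730_at), the granule carboxypeptidase, read 8.22, 7.92, 6.71, 8.89 and 10.36 in wild-type spleen. The early spleens read 7.01, 5.52 and 5.46, the progression spleens 6.84, 7.61 and 6.36, and the terminal spleens 7.07, 6.28 and 7.54. Cpa3 fell by 2.42 ± 0.64 in the early stage (adjusted p = 0.0188), from a mean of 8.42 ± 1.34 (SD, n = 5) to 6.0 ± 0.87 (SD, n = 3). No fold is given here either, since early spleens 2 and 3 were near the floor. The changes in progression (-1.48 ± 0.64, adjusted p = 0.119) and at the terminal stage (-1.46 ± 0.64, adjusted p = 0.0952) were not called. Wild-type spleen 3 was the only wild-type array that overlapped the fusion spleens. The early call was lost without early spleen 2 (-2.18, adjusted p = 0.074) and without early spleen 3 (-2.15, adjusted p = 0.0692). Without wild-type spleen 3 the changes in progression (-1.91, adjusted p = 0.0363) and at the terminal stage (-1.88, adjusted p = 0.0206) were called. With the level of Xist in the model the terminal change of Cpa3 was called as well (-2.19, adjusted p = 0.0105). In that fit the progression change shrank to -0.95 and was not called (adjusted p = 0.237). With months of tamoxifen in the model the terminal change was -1.47 and not called (adjusted p = 0.27).

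**Figure D1:**
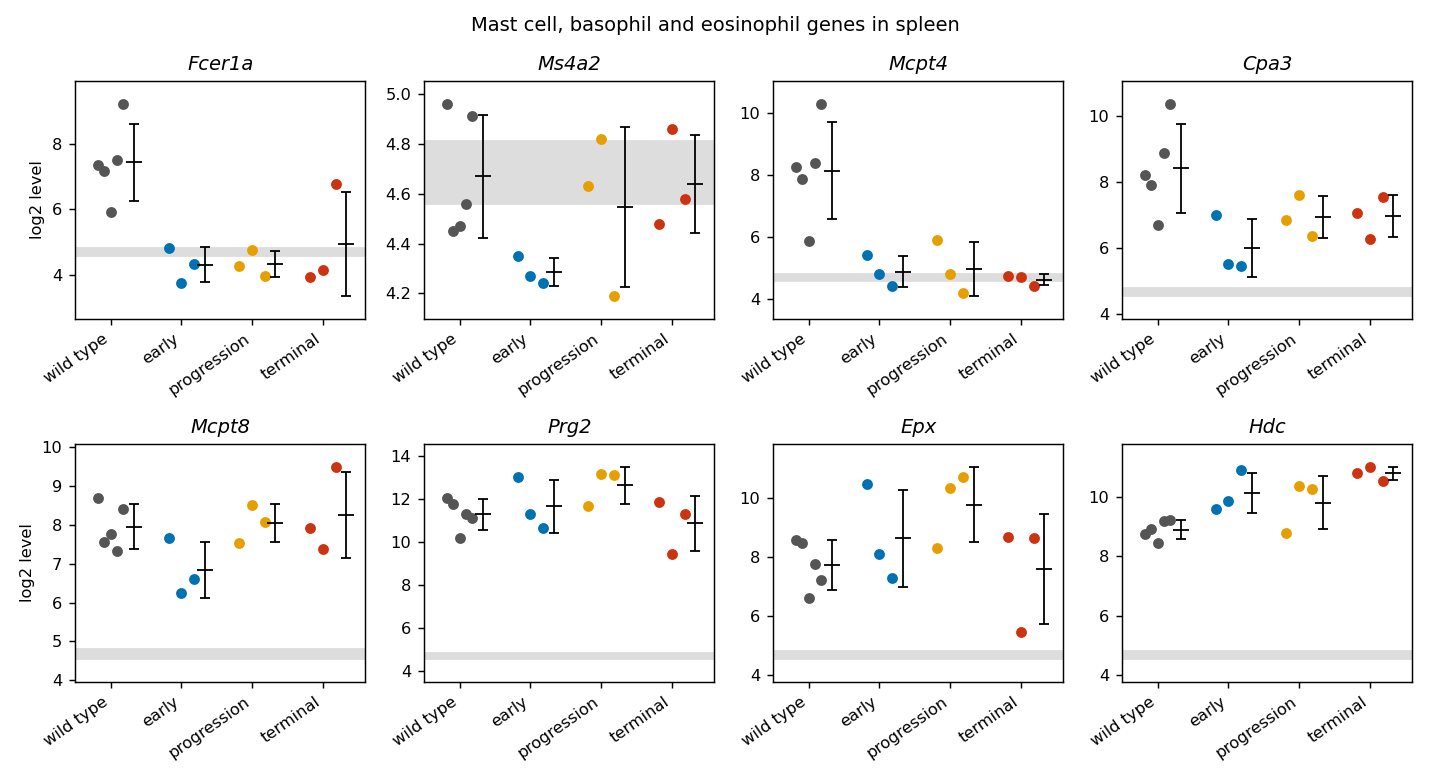
Log2 level of the 8 genes in each spleen array (points) by group, with the group mean ± SD as a bar beside the points and the range of the arrays' lower quartiles as a grey band; each panel has its own y axis. Fcer1a and Mcpt4 sit at or near the grey band in most fusion spleens and between 5.87 and 10.29 in wild type, while Hdc lies higher in the terminal spleens than in any wild-type spleen.

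Fcer1a, Mcpt4 and Cpa3 varied together within the wild-type group. Wild-type spleen 3 was the lowest and wild-type spleen 5 the highest for Fcer1a, Mcpt4 and Cpa3 alike, and both are arrays with acinar cell signal. Without these 2 arrays and early spleen 1, every remaining wild-type spleen lay above every remaining fusion spleen for all 3 genes. Wild-type spleen 3 was the only wild-type array that overlapped fusion spleens for them, so this separation follows from leaving it out. The arrays were left out after the data were seen, and the share of all genes separated in this way was not counted. With the 3 arrays left out, the changes were -3.30 ± 0.66 for Fcer1a (adjusted p = 0.0206), -3.58 ± 0.39 for Mcpt4 (adjusted p = 0.00377) and -2.85 ± 0.42 for Cpa3 (adjusted p = 0.00714) in the early stage. Cpa3 was then called also in progression (-1.41 ± 0.37, adjusted p = 0.0395) and at the terminal stage (-1.38 ± 0.37, adjusted p = 0.0209). With the level of Xist in the model, the early changes of Fcer1a (-3.06), Mcpt4 (-3.18) and Cpa3 (-2.33) were called as before.

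Mcpt8 (1449965_at), the basophil protease, read 8.70, 7.55, 7.78, 7.33 and 8.42 in wild-type spleen. The early spleens read 7.66, 6.25 and 6.61, the progression spleens 7.54, 8.52 and 8.08, and the terminal spleens 7.91, 7.38 and 9.50. Early spleens 2 and 3 were the lowest of all, and the other fusion spleens lay among or above the wild-type arrays. The changes were -1.12 ± 0.46 in the early stage (adjusted p = 0.123), 0.09 ± 0.46 in progression (adjusted p = 0.915) and 0.31 ± 0.46 at the terminal stage (adjusted p = 0.662). The 95% confidence interval in the early stage, not adjusted for the number of genes, ran from -2.11 to -0.12. It left out 0 and overlapped the interval of Cpa3 at that stage (-3.79 to -1.05). The 95% confidence interval at the terminal stage, from -0.68 to 1.30, does not reach the changes seen for Mcpt4. Terminal spleen 3, the fusion spleen with the highest Fcer1a, also had the highest Mcpt8 of all spleens.

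The eosinophil genes Prg2 and Epx were not called at any stage, and their levels had nearly the same order over the arrays. Prg2 (1422873_at) read 12.04, 11.75, 10.15, 11.28 and 11.08 in wild-type spleen, 13.02, 11.27 and 10.65 in the early stage, 11.63, 13.13 and 13.10 in progression, and 11.82, 9.41 and 11.29 at the terminal stage. Epx (1449136_at) read 8.59, 8.48, 6.62, 7.76 and 7.22 in wild type, 10.49, 8.11 and 7.30 in the early stage, 8.32, 10.33 and 10.70 in progression, and 8.69, 5.46 and 8.65 at the terminal stage. For both genes early spleen 1 and progression spleens 2 and 3 were above all wild-type spleens, and terminal spleen 2 was below all of them. In progression Epx was called where the fit held only the groups compared (2.05, adjusted p = 0.0332) and in 1 fit over all arrays of both tissues (2.05, adjusted p = 0.045). The changes of Epx were 0.90 ± 0.85 (adjusted p = 0.529), 2.05 ± 0.85 (adjusted p = 0.108) and -0.14 ± 0.85 (adjusted p = 0.925) in the early, progression and terminal stages. Those of Prg2 were 0.38 ± 0.62 (adjusted p = 0.735), 1.36 ± 0.62 (adjusted p = 0.142) and -0.42 ± 0.62 (adjusted p = 0.654). Without the 3 spleens with acinar signal the early changes turned to -0.57 for Epx and -0.73 for Prg2.

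Hdc (1454713_s_at), the histamine-forming enzyme, was the only one of the 8 genes called higher. The wild-type spleens read 8.73, 8.90, 8.44, 9.17 and 9.23. The early spleens read 9.60, 9.87 and 10.89, the progression spleens 8.77, 10.37 and 10.26, and the terminal spleens 10.81, 10.99 and 10.54. Every early and terminal spleen was above every wild-type spleen, and progression spleen 1 lay within the wild-type range. Hdc rose by 1.23 ± 0.35 in the early stage (2.34-fold, adjusted p = 0.0293) and by 1.89 ± 0.35 at the terminal stage (3.70-fold, adjusted p = 0.000868). In progression the change was 0.91 ± 0.35 (adjusted p = 0.0871). Without progression spleen 1 it was 1.43 and called (adjusted p = 0.00627).

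The second Hdc probe set (1451796_s_at) had the same order of groups. Its means were 8.18 ± 0.30 (SD, n = 5) in wild type, 9.52 ± 0.85 (n = 3) in the early stage, 9.25 ± 0.56 (n = 3) in progression and 10.04 ± 0.51 (n = 3) at the terminal stage. With the mean of both probe sets the changes were 1.28 (adjusted p = 0.0172), 0.99 (adjusted p = 0.0509) and 1.88 (adjusted p = 0.000589). The early call was the less stable of the 2: it was lost without early spleen 3 (0.84, adjusted p = 0.13), without wild-type spleen 2 (1.23, adjusted p = 0.0526), without wild-type spleen 3 (1.11, adjusted p = 0.0672), with months of tamoxifen in the model (1.20, adjusted p = 0.072) and without the 3 spleens with acinar signal (1.45, adjusted p = 0.0922). The terminal call held under every alternative run. Other genes of neutrophils and their precursors moved with Hdc. All 10 measured genes of mature neutrophils and all 5 of promyelocytes rose at each stage, their mean log2 levels in the terminal spleens being 13.29 to 13.56 and 12.79 to 13.40, against 11.04 to 11.81 and 8.40 to 9.85 in wild type. Their part in the rise of Hdc was not tested.

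Pooled over the stages, the unweighted mean of the fusion groups was lower than wild type by a change of -2.91 ± 0.51 for Fcer1a (adjusted p = 0.000617), -3.32 ± 0.53 for Mcpt4 (adjusted p = 0.000256) and -1.79 ± 0.49 for Cpa3 (adjusted p = 0.0116). Hdc was higher by 1.34 ± 0.27 (adjusted p = 0.0016). The other changes were -0.18 ± 0.12 for Ms4a2, -0.24 ± 0.35 for Mcpt8, 0.44 ± 0.47 for Prg2 and 0.94 ± 0.65 for Epx, with adjusted p from 0.283 to 0.634. The median change of the 8 genes was -0.21, and that of all genes 0.04.

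**Figure D2:**
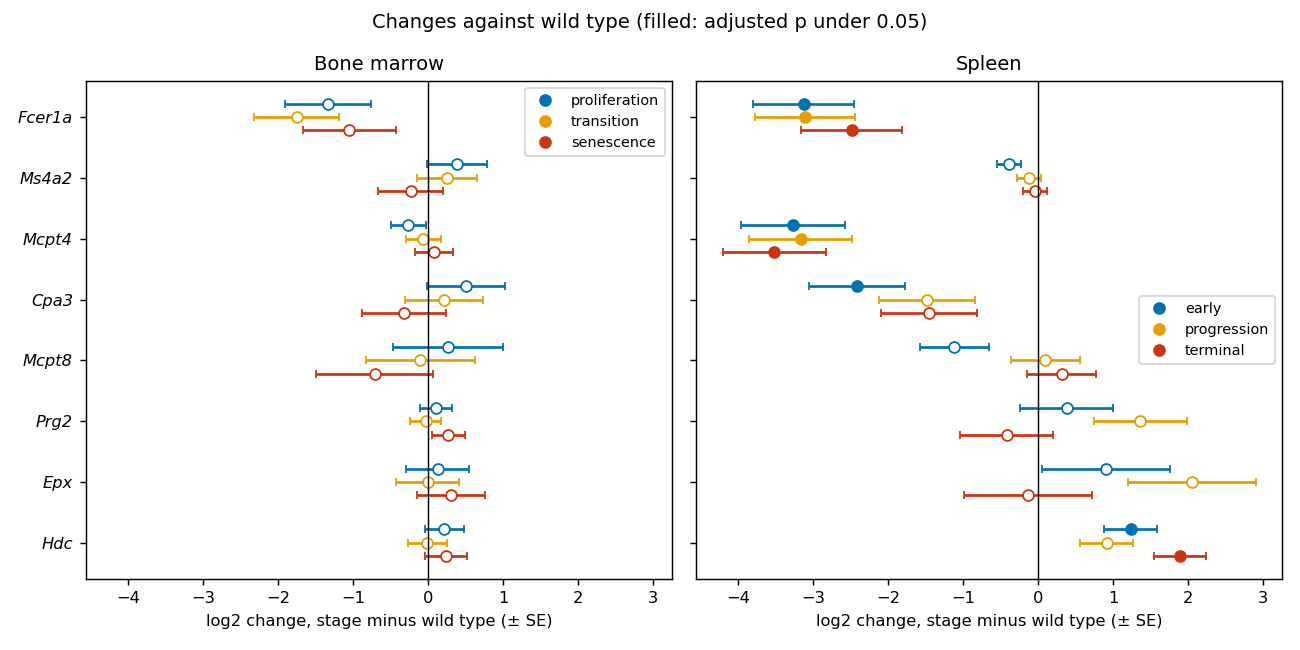
Change of each gene against wild type (log2, ± SE) for the 3 fusion groups of marrow (left) and spleen (right); filled points passed the adjusted p of 0.05. No marrow point is filled, and in spleen the changes of Fcer1a and Mcpt4 lie between -3.52 and -2.49 at every stage.

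In bone marrow none of the 8 genes was called by limma at any cell state. The test called 0.282% of all genes in proliferation, 0.42% in transition and 0.0484% in senescence, and 0.662% with the states pooled. At an unadjusted p under 0.05 limma had 1 of the 8 genes in proliferation, 1 in transition and 0 in senescence, against 1227, 1296 and 788 of all genes, and the gene was Fcer1a in both cases. Pooled it had 1 of the 8, again Fcer1a, and 1548 of all genes. The median change of the 8 genes was 0.18, -0.02 and -0.08 in proliferation, transition and senescence, and that of all genes 0.01, 0.04 and 0. The eosinophil genes, Hdc, Cpa3 and Mcpt8 were above the array median in all 15 marrows. Mcpt4 was near the floor in all 15 and Ms4a2 in 12.

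Fcer1a in marrow read 8.71, 9.06, 9.41 and 9.53 in wild type. The proliferation marrows read 7.93, 6.61, 9.29 and 7.58, the transition marrows 8.95, 7.49, 7.44 and 5.84, and the senescence marrows 8.69, 7.91 and 7.80. The 3 senescence marrows lay below all wild-type marrows, and 1 proliferation and 1 transition marrow overlapped them. The changes were -1.33 ± 0.57 in proliferation (adjusted p = 0.444), -1.75 ± 0.57 in transition (adjusted p = 0.29), -1.05 ± 0.62 in senescence (adjusted p = 0.858) and -1.37 ± 0.48 with the states pooled (adjusted p = 0.237). Without transition marrow 1 the change in transition was -2.26 (adjusted p = 0.0306) and the pooled change -1.54 (adjusted p = 0.0476), both called. With array weights it was called in proliferation (-1.63, adjusted p = 0.0495), in transition (-2.0, adjusted p = 0.0212) and pooled (-1.59, adjusted p = 0.0248). Fcer1a stayed uncalled in 17 of 18 alternatives in proliferation and in 16 of 18 in transition. It stayed so in all 17 in senescence and in 22 of 24 pooled. With 1 array left out the change ran from -1.81 to -0.91 in proliferation and from -2.26 to -1.22 in transition.

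Ms4a2 in marrow had means of 6.81 ± 0.71 (SD, n = 4) in proliferation, 6.68 ± 0.93 (n = 4) in transition, 6.20 ± 0.32 (n = 3) in senescence and 6.43 ± 0.29 (n = 4) in wild type. Proliferation marrows 2 and 3 and transition marrow 3 read 7.26, 7.57 and 7.96, above the other 12 arrays. The changes of Ms4a2 ran from -0.23 ± 0.43 to 0.39 ± 0.40, with adjusted p from 0.827 to 0.96. Mcpt4 ranged from 5.60 to 6.60 over all marrows, with changes from -0.26 ± 0.23 to 0.08 ± 0.25 and adjusted p from 0.779 to 0.983. A gene at the floor in both groups can show no fall, so the marrow gives no value for Mcpt4 that compares with its fall in spleen.

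Cpa3 read 9.76, 10.23, 11.02 and 8.82 in proliferation marrow, 9.62, 10.01, 10.79 and 8.26 in transition, 8.90, 8.40 and 10.08 in senescence, and 9.04, 9.35, 9.66 and 9.74 in wild type. Mcpt8 read 11.29, 11.42, 12.61 and 9.78 in proliferation, 11.11, 10.77, 12.84 and 8.88 in transition, 9.41, 9.76 and 11.70 in senescence, and 10.71, 10.93, 11.01 and 11.34 in wild type. The fusion marrows spread to both sides of the wild type for both genes: the SD of Mcpt8 was 1.16, 1.62 and 1.24 in the fusion states and 0.26 in wild type. The changes of Cpa3 were 0.51 ± 0.52, 0.22 ± 0.52 and -0.32 ± 0.56 in proliferation, transition and senescence, with adjusted p of 0.822, 0.926 and 0.959. Those of Mcpt8 were 0.27 ± 0.73, -0.10 ± 0.73 and -0.71 ± 0.78, with adjusted p of 0.947, 0.981 and 0.921. The difference in spread was not tested.

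Prg2 in marrow lay near the top of the array scale, from 13.90 to 14.98 over all 15 arrays. Its means were 14.64 ± 0.24, 14.51 ± 0.47 and 14.81 ± 0.16 (SD, n = 4, 4 and 3) in proliferation, transition and senescence, and 14.53 ± 0.23 (SD, n = 4) in wild type. Epx read 12.12, 13.22, 13.55 and 12.67 in proliferation, 12.26, 13.14, 13.92 and 11.70 in transition, 13.53, 12.36 and 13.29 in senescence, and 12.81, 12.49, 12.80 and 12.92 in wild type. As for Mcpt8, fusion marrows lay on both sides of a narrow wild-type range. The changes of Epx were 0.13 ± 0.42, 0.00 ± 0.42 and 0.31 ± 0.45, with adjusted p of at least 0.945, and those of Prg2 were 0.11 ± 0.21, -0.03 ± 0.21 and 0.27 ± 0.22, with adjusted p of at least 0.914.

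Hdc in marrow read 12.52, 12.73, 13.07 and 13.20 in proliferation, 11.73, 12.80, 12.88 and 13.18 in transition, 12.94, 12.83 and 12.91 in senescence, and 12.87, 12.92, 12.52 and 12.32 in wild type. The groups overlapped, and the changes were 0.22 ± 0.26, -0.01 ± 0.26 and 0.24 ± 0.28, with adjusted p of 0.845, 0.996 and 0.923. The rise of Hdc in spleen therefore had no counterpart past the threshold in marrow. Whether the 2 tissues differ was not tested.

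**Figure D3:**
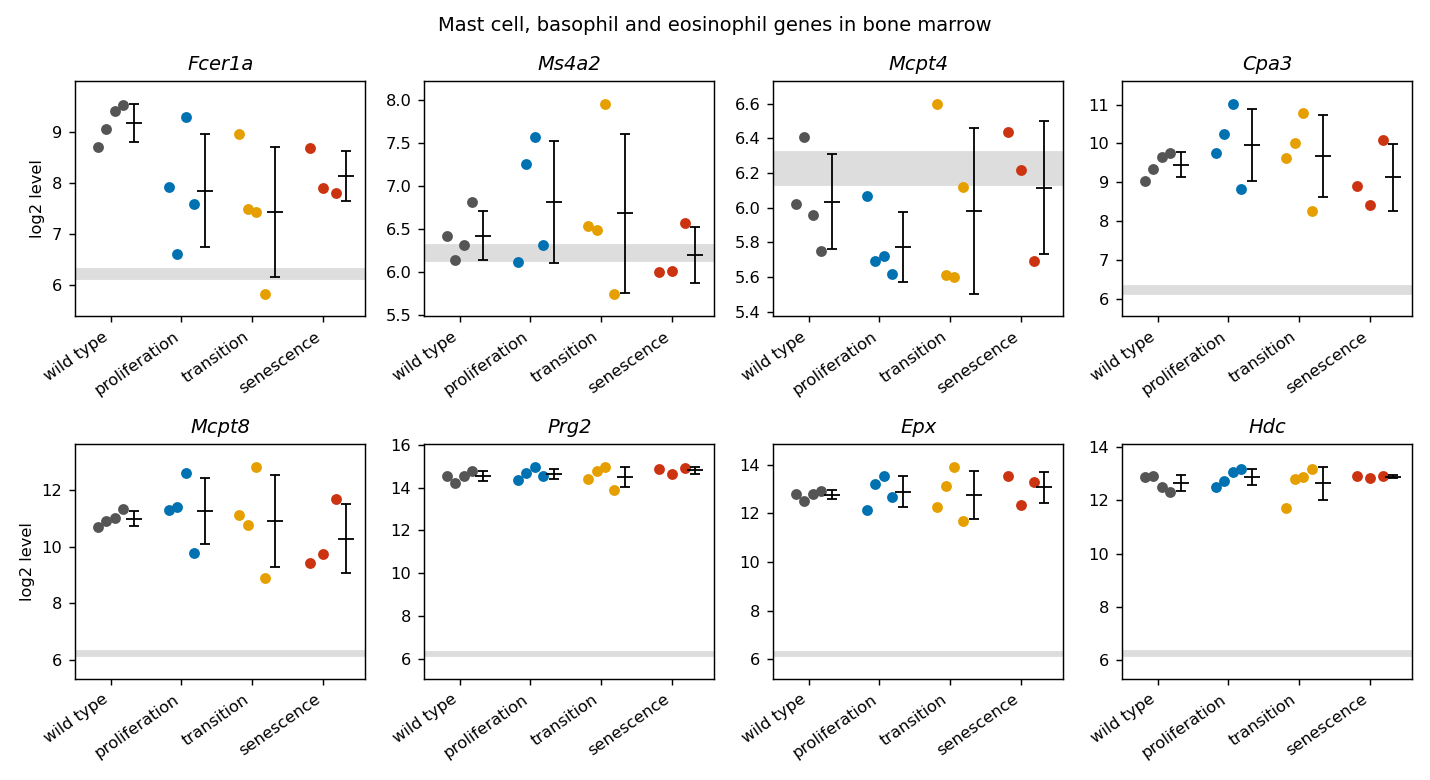
Log2 level of the 8 genes in each bone marrow array (points) by group, with the group mean ± SD as a bar beside the points and the range of the arrays' lower quartiles as a grey band; each panel has its own y axis. Fcer1a lies at 8.71 or above in all 4 wild-type marrows and reaches that in 2 of 11 fusion marrows, and Cpa3, Mcpt8 and Epx spread more widely in fusion marrow than in wild type.

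No gene of the 8 was called between stages. In marrow limma called 0 of 12394 genes (0%) between transition and proliferation, between senescence and proliferation and between senescence and transition. At an unadjusted p under 0.05 it had 266, 125 and 380 genes, and none of the 8. The smallest p belonged to Mcpt4 in transition against proliferation (0.20 ± 0.23), to Cpa3 in senescence against proliferation (-0.83 ± 0.56) and to Prg2 in senescence against transition (0.30 ± 0.22), each with adjusted p = 1.

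In spleen progression against early also gave 0% of all genes by limma, with 910 genes and 1 of the 8 at an unadjusted p under 0.05. That gene was Mcpt8, whose change was 1.20 ± 0.52 (adjusted p = 0.67). Terminal against early gave 6.61% of all genes, and Mcpt8 again had the smallest p of the 8, with a change of 1.42 ± 0.52 (adjusted p = 0.112). Both comparisons rest on the same 3 early spleens, of which 2 had the lowest Mcpt8 of the tissue. Terminal against progression gave 5.86% of all genes, where 3 of the 8 had an unadjusted p under 0.05: Prg2 at -1.78 ± 0.69 (adjusted p = 0.131), Hdc at 0.98 ± 0.39 (adjusted p = 0.143) and Epx at -2.18 ± 0.95 (adjusted p = 0.169). The changes between stages ran from 0.02 ± 0.75 to 0.64 ± 0.75 for Fcer1a and from -0.36 ± 0.77 to 0.10 ± 0.77 for Mcpt4. Most fusion spleens were near the floor for both genes, so a further fall between stages could not show there. The 95% confidence interval of the terminal minus early difference ran from -0.98 to 2.26 for Fcer1a and from -1.91 to 1.40 for Mcpt4.

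The other genes of these lineages are given by lists, whose counts are to be read against the 15.9%, 19.3% and 34.5% of all genes called in the early, progression and terminal spleen. Of 8 measured genes in a list of granule proteases and granule cargo, 1 fell in the early spleen, and 1 fell and 1 rose in progression and at the terminal stage. The gene that fell was Cma1, a mast cell chymase, with changes of -2.42 ± 0.47 (adjusted p = 0.00323), -2.46 ± 0.47 (adjusted p = 0.00246) and -3.12 ± 0.47 (adjusted p = 0.000173). Cma1 read 7.56, 6.94, 6.08, 7.97 and 9.15 in wild-type spleen and from 4.31 to 5.39 in the 9 fusion spleens, with no overlap. All 9 fusion spleens were near the floor for Cma1. Wild-type spleens 3 and 5 were again the lowest and the highest. The gene that rose was Serpinb1a, an inhibitor of neutrophil elastase and related proteases, by 1.02 ± 0.34 (adjusted p = 0.0488) and 1.91 ± 0.34 (adjusted p = 0.00057). The tryptase gene Tpsb2 lay near the floor in all spleens but wild-type spleen 5, from 4.61 to 5.56, and read 6.03 in that array. It was not called at any stage.

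Among 5 further eosinophil genes, Ccr3, the receptor for eotaxins, fell at each stage and Siglecf, a lectin of the eosinophil surface, rose at each stage. The changes of Ccr3 were -1.83 ± 0.23 (adjusted p = 0.000179), -1.42 ± 0.23 (adjusted p = 0.000738) and -1.48 ± 0.23 (adjusted p = 0.000208), with no overlap between the wild-type spleens (6.91 to 7.84) and the fusion spleens (5.12 to 6.41). Siglecf rose by 1.16 ± 0.36 (adjusted p = 0.0426), 1.26 ± 0.36 (adjusted p = 0.0259) and 1.53 ± 0.36 (adjusted p = 0.00444). All wild-type spleens (4.11 to 5.54) were near the floor for Siglecf, as were early spleen 2 (4.96) and progression spleen 1 (5.15). Il5ra, the receptor for the eosinophil growth factor IL-5, fell by 0.80 ± 0.23 at the terminal stage (adjusted p = 0.0149), from a mean of 5.59 to 4.79. The terminal spleens were near the floor for Il5ra, and so were wild-type spleens 1, 4 and 5. Prg3, a homologue of Prg2, was not called, with changes of 0.32 ± 0.71, 1.25 ± 0.71 and -0.60 ± 0.71. The eosinophil genes thus held calls in both directions, and the granule genes among them none.

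Of 14 measured genes that carry the signal of the IgE receptor, 5 fell and 1 rose in the early spleen, 5 fell and 1 rose in progression, and 4 fell and 2 rose at the terminal stage. Fcer1g, the shared signalling chain, rose by 0.98 ± 0.15 in progression (adjusted p = 0.00061) and by 1.21 ± 0.15 at the terminal stage (adjusted p = 4.12e-05), and also passed in the early stage (0.57 ± 0.15, adjusted p = 0.0218). All 9 fusion spleens (12.08 to 13.17) lay above all wild-type spleens (11.58 to 11.91) for Fcer1g, while the IgE-binding chain Fcer1a was lower. Fcer1g also serves other receptors and whole tissue was measured, so both changes need not lie in the same cells. The part of other cells in the rise of Fcer1g was not tested. The genes that fell at all 3 stages were the kinase Fyn and the adaptors Lat and Grap2, which T cells use too. From early to terminal the changes of Lat were -1.29 ± 0.29 (adjusted p = 0.00709), -1.49 ± 0.29 (adjusted p = 0.00241) and -1.96 ± 0.29 (adjusted p = 0.000125), and those of Fyn -1.41 ± 0.26 (adjusted p = 0.00233), -1.26 ± 0.26 (adjusted p = 0.00406) and -1.65 ± 0.26 (adjusted p = 0.000244). Of 9 measured T cell genes 8, 8 and 9 fell at these stages, and their mean log2 levels were 6.73 to 7.84 in fusion spleens and 8.73 to 9.13 in wild type. Their part in the fall of the signalling genes was not tested.

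**Figure D4:**
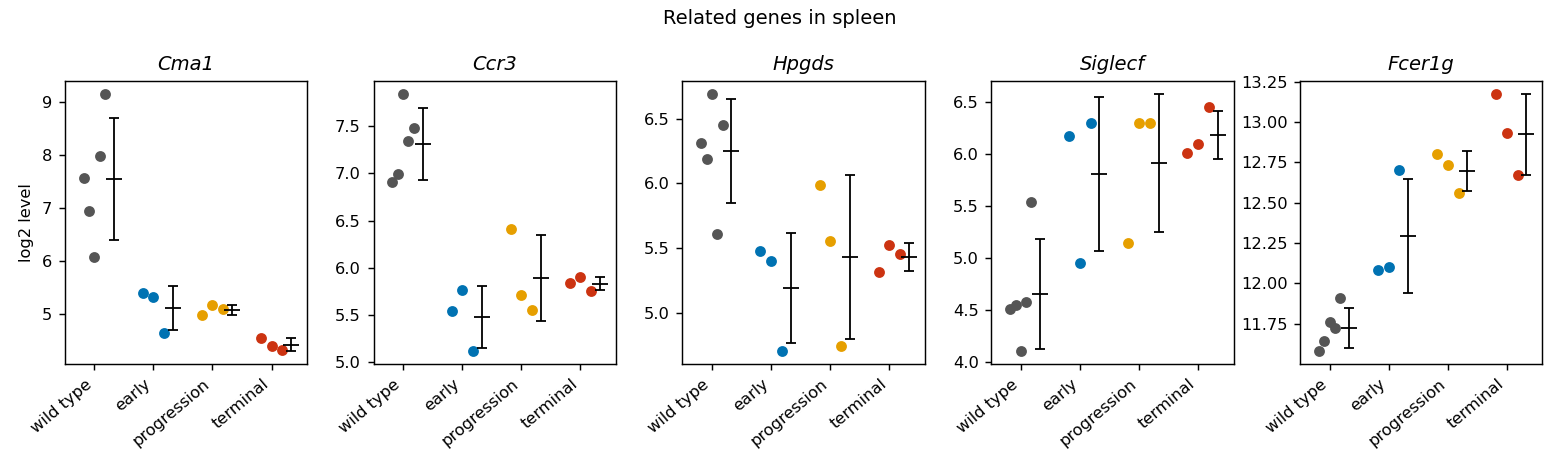
Log2 level of 5 related genes in each spleen array (points) by group, with the group mean ± SD as a bar beside the points; each panel has its own y axis. Cma1 and Ccr3 lie lower in all fusion spleens than in any wild-type spleen, Fcer1g lies higher, and Hpgds and Siglecf overlap in single arrays.

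Among 9 receptors for growth factors of these lineages, Csf2ra, the alpha chain of the GM-CSF receptor, rose by 1.37 ± 0.22 (adjusted p = 0.000849), 1.82 ± 0.22 (adjusted p = 0.000111) and 2.03 ± 0.22 (adjusted p = 1.06e-05) from early to terminal. Tgfbr2, a receptor for TGF-beta, fell at each stage, with changes of -1.64 ± 0.19, -1.75 ± 0.19 and -1.73 ± 0.19 and adjusted p of 0.00012, 5.62e-05 and 1.19e-05. Kit, the receptor for stem cell factor on which mast cells depend and which early progenitors also carry, rose by 0.88 ± 0.26 in the early spleen (adjusted p = 0.0341). The mean of Kit therefore lay above wild type at this stage, while the means of Mcpt4, Cpa3 and Cma1 lay below it. The Kit levels overlapped, with 9.08 in wild-type spleen 5 and 8.91 in early spleen 2. The tryptase gene Tpsb2 was not called. Altogether 3 receptors of the list rose and 1 fell in the early stage, 1 rose and 1 fell in progression, and 3 rose and 3 fell at the terminal stage. Among 8 progenitor genes, 4, 5 and 4 rose at these stages and 0, 0 and 1 fell.

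Of 15 transcription factors that act in these lineages, 3 rose in the early spleen, 4 in progression and 4 at the terminal stage, where 4 others fell. These counts lay close to the share called among all genes in the early and progression stages (15.9% and 19.3%). Cebpa, a factor of granulocyte precursors, rose by 1.34 ± 0.16 (adjusted p = 0.000134), 1.52 ± 0.16 (adjusted p = 4.42e-05) and 1.72 ± 0.16 (adjusted p = 3.14e-06), and Spi1 by 1.09 ± 0.18 (adjusted p = 0.00123), 0.97 ± 0.18 (adjusted p = 0.00213) and 2.00 ± 0.18 (adjusted p = 2.97e-06). At the terminal stage Lmo2, Tal1, Zfpm1 and Gata1 fell, of which Gata1 fell by 1.03 ± 0.30 (adjusted p = 0.0149). All of these also act in erythroid cells, whose 7 measured genes all fell at that stage, and their part was not tested. Gata2, a factor of mast cell and basophil precursors, was not called, with 0.10 ± 0.27 in the early stage and -0.42 ± 0.27 at the terminal stage.

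Genes for the mediators that these cells release also moved in both directions. Of 10 measured, Alox5ap and Lta4h, which serve leukotriene synthesis and are expressed in neutrophils too, rose at each stage, by 1.67 ± 0.26, 1.87 ± 0.26 and 2.57 ± 0.26 and by 1.84 ± 0.29, 1.99 ± 0.29 and 2.22 ± 0.29, with adjusted p of at most 0.000713. Hpgds, the prostaglandin D synthase of mast cells, fell by 1.05 ± 0.28 in the early stage (adjusted p = 0.0188) and by 0.81 ± 0.28 at the terminal stage (adjusted p = 0.0349). All early and terminal spleens were near the floor for Hpgds. Hrh2, a histamine receptor, rose by 0.48 ± 0.14 at the terminal stage (adjusted p = 0.015). Of 11 cytokine genes Il4 fell in the early stage, by 0.54 ± 0.17 (adjusted p = 0.0472) at levels near the floor, none was called in progression, and at the terminal stage Tnf rose by 0.60 ± 0.17 (adjusted p = 0.014) and Csf1 fell by 0.94 ± 0.21 (adjusted p = 0.00298). In marrow the only calls in the 7 lists against wild type were Ptgs2 (2.20 ± 0.43, adjusted p = 0.04) and Ccl3 (3.22 ± 0.44, adjusted p = 0.00304), both higher in transition.

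Across the 15 marrows several of the 8 genes varied together from array to array. Of 28 pairs, 8 had a Pearson correlation past an adjusted p of 0.05 in a permutation test. Cpa3 and Mcpt8 had r = 0.94 and Spearman's rho = 0.92 (adjusted permutation p = 9.3e-05 and 0.00028), and r = 0.91 without the 2 arrays farthest from the median of Cpa3. Prg2 and Epx had r = 0.91 and rho = 0.91 (adjusted permutation p = 9.3e-05 and 0.00028), and r = 0.92 without the 2 farthest arrays. Ms4a2, although near the floor in most marrows, had r = 0.87 with Cpa3 and rho = 0.85 (adjusted permutation p = 9.3e-05 and 0.00084), and r = 0.77 without the 2 farthest arrays. The unadjusted p of these 3 correlations was 1e-05, the smallest that 100000 permutations can give. Computed on deviations from the group means, the 3 values of r were 0.95, 0.92 and 0.84. Ms4a2 and Mcpt8 also passed (r = 0.86, adjusted permutation p = 0.00021). The rest paired Ms4a2 or Cpa3 with an eosinophil gene. Ms4a2 had r = 0.65 with Prg2 and 0.74 with Epx (adjusted permutation p = 0.038 and 0.0078). Cpa3 had r = 0.62 and 0.68 with them (adjusted permutation p = 0.047 and 0.027). Without the 2 farthest arrays these 4 values of r fell to 0.51, 0.53, 0.36 and 0.51. The adjusted permutation p of their rho was 0.05, 0.046, 0.053 and 0.046 in the same order. In the 11 fusion marrows 4 of 28 pairs passed, and neither Ms4a2 nor Cpa3 passed with an eosinophil gene.

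Fcer1a was in none of the 8 pairs. In marrow its r was 0.21 with Cpa3 and 0.31 with Mcpt8 (adjusted permutation p = 0.57 and 0.41), with rho of 0.04 and 0.15 (adjusted p = 0.96 and 0.74). Hdc correlated with none of the other members past the threshold, its r lying between -0.43 and 0.20.

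In the 9 fusion spleens 2 of 28 pairs passed the exact permutation test for Pearson's r. Prg2 and Epx had r = 0.99 and rho = 0.93 (adjusted exact p = 0.0024 and 0.021), and r = 0.98 without the 2 farthest arrays. Cpa3 and Mcpt8 had r = 0.88 and rho = 0.87 (adjusted exact p = 0.023 and 0.063), and r = 0.71 without the 2 farthest arrays. Both pairs were also among those that passed over the 15 marrows. In the fusion spleens Cpa3 had r = 0.23 with Mcpt4 (adjusted exact p = 0.9), and Mcpt4 was near the floor in most of them. Fcer1a had r = 0.76 with Mcpt8 (adjusted exact p = 0.13). In the wild-type spleens Cpa3 and Mcpt8 did not share an order, as Cpa3 was highest in wild-type spleen 5 and Mcpt8 in wild-type spleen 1.

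**Figure D5:**
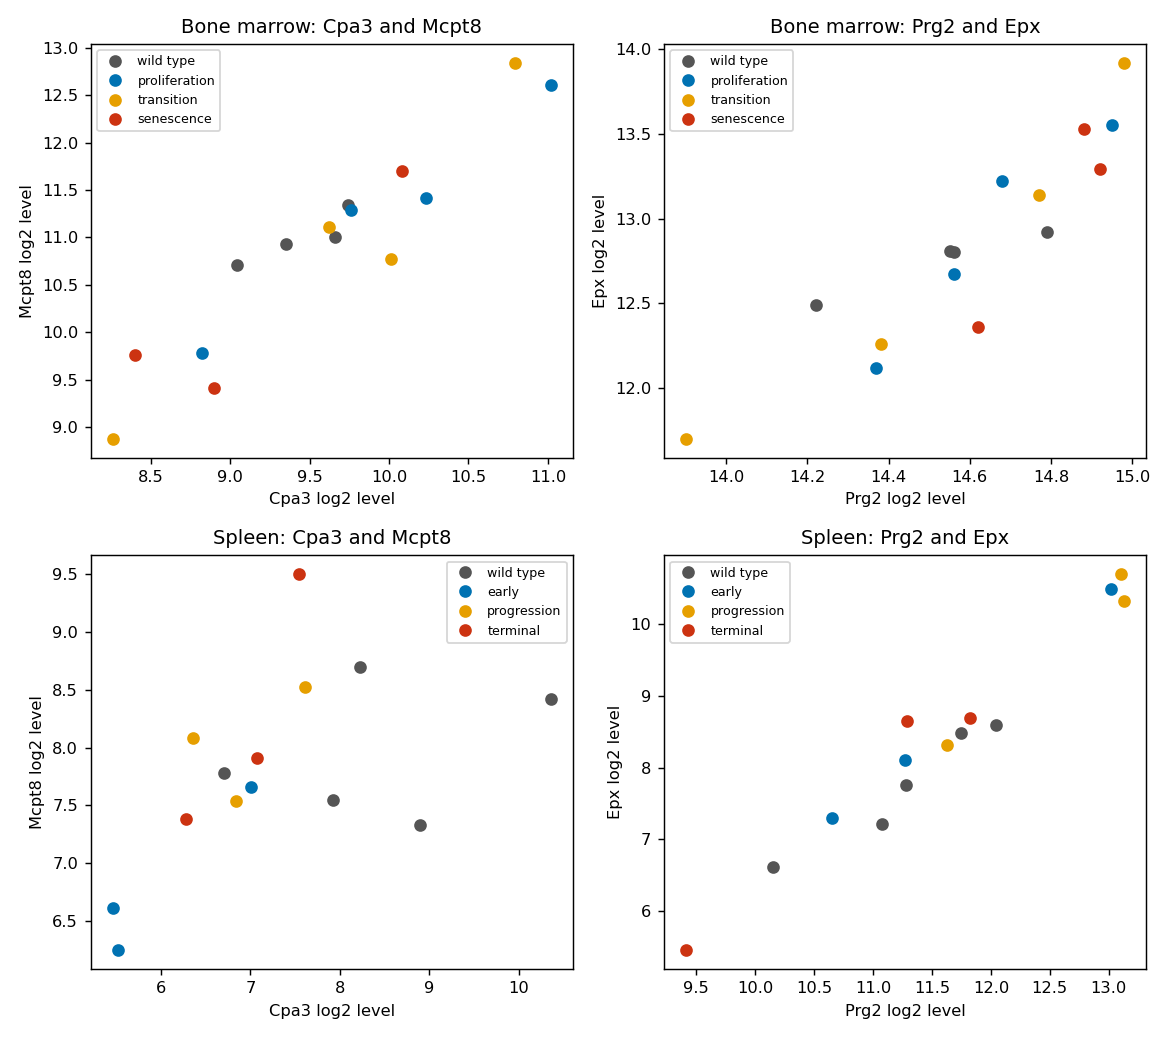
Log2 levels of Mcpt8 against Cpa3 and of Epx against Prg2, each point an array coloured by group, in marrow (top) and spleen (bottom). In marrow both pairs lie along a line over all groups (r = 0.94 and 0.91), and in spleen Prg2 and Epx do so as well, while 4 of 5 wild-type spleens lie to the right of the fusion spleens in the plot of Cpa3 and Mcpt8.

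The genes whose levels most resembled each member were read from Pearson's r with every other gene, as a description. Over the 14 spleens Mcpt4 was nearest to Cma1 (r = 0.966), Fcer1a to Dph5 (0.914) and Cpa3 (0.887), and Prg2 and Epx to each other (0.98) and then to Prg3 (0.953 and 0.958). Hdc was nearest to Fmo5 (0.968), Selenon (0.965) and Dhrs7 (0.964). Ms4a2 was nearest to Ccl7 (0.894) and Ccl2 (0.856), at levels near the floor. All 14 arrays share the split between fusion and wild type, so a high r need not hold within either.

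Over the 15 marrows Cpa3 was nearest to Mcpt8 (0.943), Cyp11a1 (0.871) and Ms4a2 (0.866), and Mcpt8 to Cpa3, Cdh1 (0.861) and Ms4a2 (0.856). Prg2 was nearest to Epx (0.912), Sec23a (0.872) and Prg3 (0.828), and Epx to Prg2, Prg3 (0.87) and Perp (0.862). Fcer1a was nearest to Slc26a1 (0.863), Bdh1 (0.861) and Mettl27 (0.85), none of them a gene of the lists used here. Hdc was nearest to Rap2c (0.881). Mcpt4 was nearest to Gdf11 (0.961), Dyrk1b (0.953) and Grip1 (0.952), at the floor of the arrays.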

How the data were processed

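Gene expression was measured on 29 arrays of 22690 probe sets, 15 of bone marrow and 14 of spleen. The values are log2 probe set levels as the authors deposited them, for which the submitters' processing notes name RMA, affy and limma. Versions, background settings, filters and the annotation used are not given in the sources used here. The median log2 level of an array was 8.11 to 8.29 for marrow but 6.73 to 6.90 for spleen. Comparisons were therefore made only within a tissue, and levels of different probe sets were not set against each other. Arrays give no read depth, and their number limits the precision.

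A single gene symbol was given for 20393 probe sets, several symbols for 691 and none for 1606. The brightest probe set per symbol and tissue gave 12394 genes. Both tissues were analysed apart in R 4.3.3 (limma 3.58.1, lmFit and eBayes, 4 groups each, Benjamini-Hochberg over all genes, threshold 0.05), and every adjusted p of a change is from that fit. The fit was tested on simulated data. No detection calls were used: a level within 1 log2 unit of the array's lower quartile (6.13 to 6.32 in marrow, 4.56 to 4.81 in spleen) or below it is called near the floor, and no fold is given for a group mean there. Correlations were tested by permutation (100000 in marrow, exact in the 9 fusion spleens) and adjusted over 28 pairs. Promoters came from RefSeq (GRCm38.p6), with no entry for Prg2. Figures were drawn with matplotlib 3.10.9.

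The 8 genes and the gene lists were chosen with earlier results of these data known. All 8 are named in each comparison with wild type, the one with the smallest p between stages, and of each list up to 4 called genes with the smallest p. Values of Fcer1g in the early stage and of Gata1, Gata2, Prg3 and Tpsb2 were added after they were seen. Alternatives were a repeated quantile normalization, arrays centred on their medians, only genes above the median level, a mean over a gene's probe sets, a joint fit of both tissues, a fit of the compared groups alone, trended and robust eBayes, array weights, the replicate number as a block, Xist, the Gapdh 3'/5' difference or months of tamoxifen as covariate, each array left out in turn and, chosen after the data were seen, the 3 spleens with acinar signal left out. Same-numbered arrays did not deviate together, so the numbers were not used as pairs. The replicates are labelled biological, and the labels do not say whether a mouse gave both marrow and spleen. No 2 arrays held identical values.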

Additional observations from a re-analysis of the deposited data

How the results depend on the processing

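All values are log2 changes or counts of the 8 genes called. With array weights the counts were 1 in marrow proliferation, 1 in transition and 1 with the states pooled (Fcer1a each time), 7 in the early spleen and 1 in terminal against early spleen (Hdc). In the early spleen, weights added Ms4a2 (-0.29, adjusted p = 0.0488), Prg2 (1.49, adjusted p = 0.0185) and Epx (2.37, adjusted p = 0.00685), and in pooled spleen they added Epx (1.43, adjusted p = 0.0447). Among genes above the median level, where Fcer1a, Ms4a2, Mcpt4 and Cpa3 are not tested in spleen, the counts were 1 in the early spleen, 0 in progression, 1 at the terminal stage and 1 pooled (Hdc each time it was 1). With 1 array left out the count ranged from 0 to 1 in marrow transition and pooled marrow (1 without transition marrow 1) and from 2 to 4 in the early spleen (2 without early spleen 3).

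With a replicate block, a paired fit that the labels do not ask for, 1 gene was called in the early spleen and 1 in progression (Mcpt4 both times). Fcer1a then had adjusted p = 0.0638, 0.0562 and 0.083 at the 3 stages, and Cpa3 was not called pooled (-0.99, adjusted p = 0.116). Same-numbered arrays had a mean correlation of deviations of 0.054 in marrow and -0.0048 in spleen, and 2 of 15 and 4 of 14 arrays correlated best with their own number. The block also turned Ms4a2 at the terminal stage (0.0081).

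Changes turned sign in these cases, none of them called in the comparison as reported, and the cause was not tested. With Xist as covariate they were Epx in marrow proliferation (-0.056), Mcpt8 (0.052) and Hdc (0.11) in transition, and Mcpt8 in terminal spleen (-0.2). With the Gapdh difference they were Mcpt4 (0.16) and Cpa3 (-0.077) in transition, Mcpt4 (0.038), Cpa3 (-0.03) and Epx (-0.024) in pooled marrow, and Epx in terminal spleen (0.023). With array weights they were Prg2 (0.077), Epx (0.22) and Hdc (0.27) in transition, Ms4a2 in progression (0.0037), Epx at the terminal stage (0.13) and Mcpt8 in pooled spleen (0.011). The mean of all probe sets turned Hdc in transition (0.11), and months of tamoxifen turned Mcpt8 at the terminal stage (-0.024). Without the 3 spleens with acinar signal Prg2 (-0.73) and Epx (-0.57) turned in the early stage and Prg2 (-0.22) in pooled spleen.

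With 1 array left out, changes that crossed 0 ran as follows. In marrow proliferation they ran from -0.17 to 0.77 for Mcpt8 and from -0.084 to 0.39 for Epx. In transition they ran from -0.17 to 0.57 for Ms4a2, -0.26 to 0.072 for Mcpt4, -0.15 to 0.69 for Cpa3, -0.75 to 0.57 for Mcpt8, -0.18 to 0.18 for Prg2, -0.39 to 0.35 for Epx and -0.19 to 0.3 for Hdc. In senescence they ran from -0.084 to 0.29 for Mcpt4 and -0.8 to 0.039 for Cpa3. In pooled marrow they ran from -0.0055 to 0.27 for Ms4a2, -0.18 to 0.045 for Mcpt4, -0.024 to 0.29 for Cpa3 and -0.41 to 0.046 for Mcpt8, and in transition against proliferation from -0.0011 to 0.33 for Mcpt4. In the early spleen they ran from -0.3 to 0.88 for Prg2 and -0.031 to 1.56 for Epx, and in progression from -0.26 to 0.051 for Ms4a2 and -0.15 to 0.34 for Mcpt8. At the terminal stage they ran from -0.15 to 0.044 for Ms4a2, -0.31 to 0.75 for Mcpt8, -0.91 to 0.29 for Prg2 and -0.68 to 0.93 for Epx. Signal near the floor limits what Ms4a2 in both tissues and Mcpt4 in marrow can show.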
